A study of Drosophila melanogaster with 17 samples.

Results

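The comparison of Notch RNAi with control progenitor cells in flies carrying Lactobacillus brevis rests on 6 of the 17 libraries of the series, 3 for each genotype. The members are the 3 count columns of each group, and every gene of the count table was considered. The control genotype is esgts, a temperature-sensitive driver in the intestinal progenitor cells, and the knockdown genotype is esgts/NRNAi, which adds an RNA interference construct against Notch. Both groups were adult virgin females held for 5 days at 25 °C, given L. brevis overnight as their only bacterium, and held for a further 5 days at 29 °C. Each library came from 100 pooled guts dissociated with elastase at 1 mg/mL and sorted for small cells positive for green fluorescent protein, so the cells are defined by the driver and by size. A cell that keeps the fluorescent protein while it differentiates can enter this gate. Germ-free flies (2 control and 3 Notch RNAi libraries) and flies with L. plantarum (3 and 3) of the same genotypes served to test whether an effect differed from the one with L. brevis, and their libraries shared the estimate of spread in the fit.

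In the fly midgut, stem cells divide to renew themselves and to form daughters of the absorptive or the secretory line. The stem cell presents the ligand Delta, and a daughter that receives a strong Notch signal becomes an enteroblast and then an enterocyte. A daughter with little Notch signal becomes an enteroendocrine cell, which makes peptide hormones. Inside the nucleus, the cleaved Notch receptor acts with Su(H), and the genes of the Enhancer of split complex, E(spl), are its best known targets.

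The 6 libraries held 28527517 to 38237532 counts, and expression is given as counts per 1000000 (CPM, scaled by the trimmed mean of M-values). Fold changes and adjusted p-values are from edgeR's quasi-likelihood test over 11786 genes, with genes named as called below an adjusted p of 0.05. The test itself gives no standard error (SE). Each SE given here is approximate, the absolute log2 fold change divided by the square root of the test's F statistic. Ribosomal RNA genes took 13.6% to 16.3% of the counts in the controls and 10.9% to 11.8% under Notch RNAi. Control replicate 3 stood apart in muscle transcripts. Over 27 markers of visceral muscle, its median was 32.3 CPM, against 1.89 and 1.28 in control replicates 1 and 2 and 3.21, 0.78 and 7.71 in Notch RNAi replicates 1 to 3. The summed level of the same list was 3994 to 5294 CPM in the controls and 2084 to 2646 under Notch RNAi, and at most 1 member (Obsc or tn) was at 0 in any library. The sum includes Mlc-c, Chd64 and Msp300, which were abundant in every control library, and it does not set control replicate 3 apart as the median does. Because of the muscle transcripts in control replicate 3, results were fitted both with and without that library. Lists for other tissues were low or mixed. The summed ovary list was 5.96 to 7.44 and 8.49 to 10.01 CPM in the controls and under Notch RNAi, the fat body list 54.2 to 83.4 and 87.5 to 98.0, the tracheal list 8.84 to 16.8 and 5.80 to 6.84, and the haemocyte list 295.1 to 348 and 239 to 266.6. The haemocyte marker Hml was at 0 in 4 of the 6 libraries.

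Notch itself (N, FBgn0004647, X:3134870-3172221, plus strand of BDGP6) was at 223.6, 165.7 and 194 CPM in the controls and at 79.84, 82.88 and 71.29 CPM under Notch RNAi. The groups did not overlap, and Notch was 2.49-fold lower in the knockdown. Across all tested genes 5015 were called, 42.6% of the 11786, with 2627 higher (22.3%) and 2388 lower (20.3%) under Notch RNAi. Of the called genes, 1949 changed at least 2-fold (16.5% of all tested genes), 1089 upwards (9.24% of all tested) and 860 downwards (7.3%). The groups did not overlap in CPM for 6060 genes (51.4%), 3146 higher (26.7%) and 2914 lower (24.7%). The median log2 fold change of all tested genes was 0.003. Leaving out control replicate 3 gave 4627 calls among 11761 genes (39.3%, with 20.7% higher and 18.6% lower), and 4323 genes were called in both fits, all in the same direction. In the authors' deposited table of this comparison, 4682 of 10201 genes had a false discovery rate under 0.05, and 4525 of these were also called here, which is 96.6% of the authors' calls and 96.4% of the calls here among the shared genes. In a pool of sorted cells, fewer cells of a type and less RNA per cell cannot be told apart.

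Of 22 tested genes of the core Notch pathway, 8 rose and 2 fell (36.4% and 9.09%), with a median log2 fold change of 0.26. The largest rises of the called members were those of Delta, spdo and neur. Delta (FBgn0000463, 3R:19302731-19326217, minus strand), the ligand, was at 31.85, 22.4 and 37.28 CPM in the controls and at 216, 198.8 and 150.9 under Notch RNAi. It was 6.18-fold higher with no overlap between groups (edgeR log2 fold change 2.63, SE 0.20, adjusted p = 1.21e-07). The ubiquitin ligase neur, which activates Delta by driving its endocytosis, was 3.00-fold higher, from 58.4, 65.08 and 82.42 CPM to 223.7, 219.7 and 175.2 CPM (edgeR log2 fold change 1.59, SE 0.15, adjusted p = 4.98e-07). The epsin lqf, also needed for Delta endocytosis, rose by a smaller log2 fold change of 0.45 (edgeR SE 0.08, adjusted p = 0.00049). Sanpodo (spdo), a membrane protein that acts with Notch in asymmetric divisions, stood at 6.578, 5.599 and 7.184 CPM in the controls and at 68.01, 68.42 and 50.96 CPM under Notch RNAi. That is 9.67-fold higher (edgeR log2 fold change 3.27, SE 0.20, adjusted p = 8.81e-09). Of the pathway, the genes that fell were N itself and fng, a glycosyltransferase that modifies the Notch receptor. Fringe was at 91.76, 82.9 and 73.17 CPM in the controls and at 12.06, 12.91 and 14.33 CPM in the knockdown (edgeR log2 fold change -2.66, SE 0.17, adjusted p = 1.05e-08). Su(H), the DNA-binding partner of Notch, rose by 0.54 on the log2 scale (edgeR SE 0.17, adjusted p = 0.0198), but its adjusted p was 0.0947 without Notch RNAi replicate 2 and 0.0882 without control replicate 2.

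**Figure D1:**
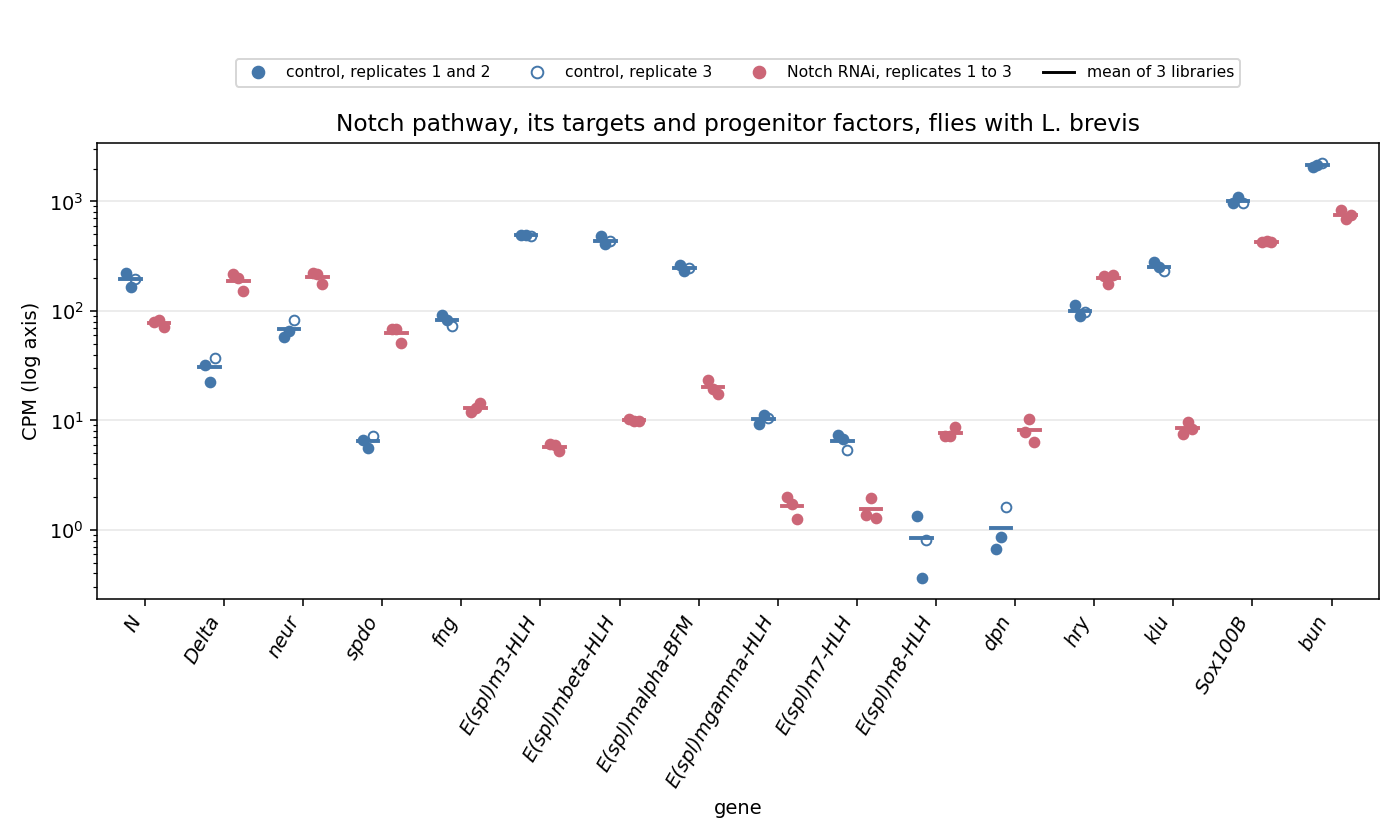
CPM per library on a log axis for genes of the Notch pathway, its targets and progenitor transcription factors in flies with L. brevis, with points for single libraries, an open circle for control replicate 3 and a bar for the mean of each group of 3. E(spl)m3-HLH falls from 483.8 to 497.9 CPM in the controls to 5.251 to 6.06 CPM under Notch RNAi, whereas Delta, neur, spdo, E(spl)m8-HLH and dpn move up.

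The E(spl) complex and related repressors split into genes that fell and genes that rose. Of 15 tested members, 7 fell and 5 rose (46.7% and 33.3%). E(spl)m3-HLH, a gene for a basic helix-loop-helix repressor on the plus strand at 3R:26021823-26023127, was at 497.9, 489.9 and 483.8 CPM in the controls and at 6.06, 5.963 and 5.251 CPM under Notch RNAi, 85.2-fold lower (edgeR log2 fold change -6.41, SE 0.30, adjusted p = 3.36e-09). E(spl)mbeta-HLH (3R:26005046-26006023, minus strand), of the same protein family, was at 479.1, 405.2 and 434.1 CPM and at 10.29, 9.964 and 9.879 CPM, 43.7-fold lower (edgeR log2 fold change -5.45, SE 0.26, adjusted p = 3.04e-09). The repressors were thus present within narrow ranges in each group, and the ranges lay far apart. E(spl)malpha-BFM, a Bearded-family inhibitor of Neuralized, was 12.3-fold lower, and E(spl)mgamma-HLH and E(spl)m7-HLH were 6.23-fold and 4.20-fold lower. E(spl)m5-HLH was at 0 in every Notch RNAi library, so it fell by at least 2.87 on the log2 scale against a floor of 3 counts over that group.

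In the same complex, E(spl)m8-HLH (3R:26040240-26041008, plus strand) was higher, at 1.349, 0.3623 and 0.809 CPM in the controls and at 7.183, 7.171 and 8.635 CPM in the knockdown (edgeR log2 fold change 3.19, SE 0.45, adjusted p = 4.08e-05). The helix-loop-helix repressor deadpan (dpn), a neural stem cell gene, was at 0.6747, 0.8564 and 1.618 CPM in the controls and at 7.792, 10.39 and 6.345 CPM under Notch RNAi (edgeR log2 fold change 2.96, SE 0.49, adjusted p = 0.000195). Hairy (hry) was 1.99-fold higher (adjusted p = 0.000216 by edgeR). The Bearded-family genes Brd and Tom, outside the complex on 3L, were at 0 in every control library and at 0.1244 to 0.4529 and 0.2737 to 0.9299 CPM under Notch RNAi, so that Brd rose by at least 3.28 and Tom by at least 4.17 (log2, against the floor of 3 counts over the controls). Each of these E(spl), Bearded-family and hairy-family genes was called in every alternative that gave it a value.

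Among 25 tested transcription factors of progenitors and enteroblasts, 9 fell and 5 rose (36% and 20%), with a median of -0.24. Klumpfuss (klu, 3L:10981171-11009188, minus strand), a zinc-finger repressor of the enteroblast, was at 281.4, 252 and 230 CPM in the controls and at 7.535, 9.587 and 8.361 CPM under Notch RNAi, 29.9-fold lower (edgeR log2 fold change -4.90, SE 0.15, adjusted p = 2.46e-12). The other falls were smaller. Sox100B, a Sox-family factor of progenitors, went from 968.6, 1092 and 961.3 CPM to 424.4, 430.8 and 422 CPM, and bun, a TSC22-family gene, from 2044, 2154 and 2230 CPM to 838, 691.1 and 747.8 CPM. Both pairs of groups were separate, and edgeR gave log2 fold changes of -1.24 (SE 0.08) for Sox100B and -1.50 (SE 0.10) for bun, at adjusted p-values of 1.07e-08 and 2.39e-08. Sox21a, which drives enteroblasts to differentiate, fell by 0.55 (log2), the JAK-STAT effector Stat92E by 0.87, the growth regulator Myc by 1.08 and its partner Max by 0.91 (adjusted p = 5.95e-05, 1.76e-05, 1.57e-05 and 2.36e-07 by edgeR). The helix-loop-helix antagonist emc, which holds back proneural proteins, fell by 0.91 (adjusted p = 3.39e-05 by edgeR). Against these, the homeobox gene cad rose from 21.66, 22.56 and 23.95 CPM to 81.99, 95.92 and 72.09 CPM (edgeR log2 fold change 1.88, SE 0.18, adjusted p = 7.58e-07), and ttk, a repressor of the enteroendocrine fate, rose by 0.67 (adjusted p = 0.00127 by edgeR).

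The factors of the enteroendocrine fate moved mostly up. Of 24 tested, 14 rose and 5 fell (58.3% and 20.8%, against 22.3% and 20.3% of all genes). The median was 0.95, or 1.13 without control replicate 3. The rises include that of ttk, the repressor of this fate described above. Among those that rose were proneural genes of the achaete-scute complex on X. Asense (ase, X:460747-463176, plus strand) was at 0.8434, 0.2964 and 0.4207 CPM in the controls and at 79.07, 111 and 73.68 CPM in the knockdown, 168-fold higher (edgeR log2 fold change 7.40, SE 0.43, adjusted p = 2.49e-08). Scute (sc) was 19.1-fold higher, from 3.542, 1.746 and 2.427 CPM to 49.96, 52.97 and 44.69 CPM (edgeR log2 fold change 4.26, SE 0.25, adjusted p = 5.86e-09). In the controls ase was under 1 CPM and sc between 1.746 and 3.542 CPM, and every knockdown library lay above every control library for both.

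Genes that act after the proneural step showed changes of similar size. Phyllopod (phyl), an adaptor that directs the degradation of Ttk, was at 0.4386, 0.2635 and 0.06472 CPM in the controls and at 42.26, 54.73 and 37.82 CPM under Notch RNAi, 174-fold higher (adjusted p = 1.38e-08 by edgeR). Insensible (insb), a nuclear inhibitor of Su(H), was at 0.7084, 0.2306 and 0.1618 CPM and at 41.59, 43.71 and 41.93 CPM, a log2 fold change of 6.85 (adjusted p = 1.08e-09 by edgeR). The zinc-finger gene nerfin-1 was at 2.092, 0.8234 and 0.5178 CPM in the controls and at 20.2, 30.67 and 22.67 CPM in the knockdown, 21.4-fold higher (adjusted p = 3.69e-06 by edgeR). Control replicate 1 held the highest control level of each of these 3 genes, and without it their log2 fold changes were 8.07, 7.73 and 5.19 in place of 7.45, 6.85 and 4.42. The Pax gene Poxn, the helix-loop-helix gene Fer1 and the corepressor nvy were 49.8-fold, 37.5-fold and 13.5-fold higher (adjusted p = 1.03e-05, 2.03e-07 and 5.38e-06 by edgeR).

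The markers of the committed lineage rose less. Prospero (pros), the homeobox factor that defines enteroendocrine cells, was at 40.99, 49.34 and 93.4 CPM in the controls, where replicate 3 was the highest, and at 237.5, 293.4 and 198.5 CPM in the knockdown (edgeR log2 fold change 1.99, SE 0.33, adjusted p = 0.000294, and 2.43 without control replicate 3). Dimmed (dimm), which promotes the secretory machinery of neuroendocrine cells, was 2.90-fold higher (adjusted p = 5.54e-05 by edgeR). Of the factors that fell, mirr, an Iroquois homeobox gene, changed most, from 33.63, 31.06 and 53.4 CPM to 2.277, 3.145 and 2.414 CPM, 15.0-fold lower (edgeR log2 fold change -3.91, SE 0.28, adjusted p = 4.96e-08). The zinc-finger gene fru was 2.64-fold lower and the helix-loop-helix gene tap 2.10-fold lower (adjusted p = 8.47e-07 and 0.00292 by edgeR).

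**Figure D2:**
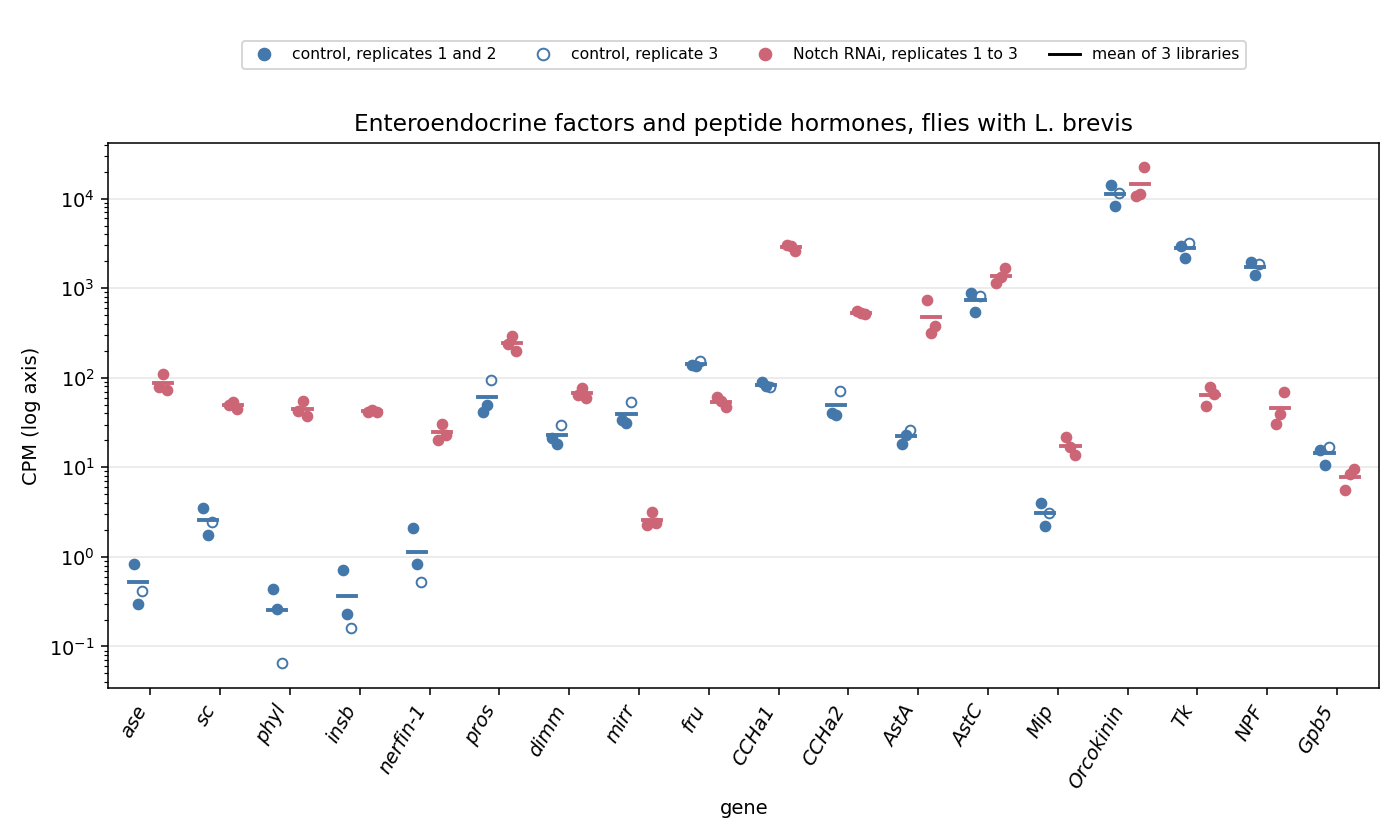
CPM per library on a log axis for enteroendocrine fate factors and peptide hormones in flies with L. brevis, with points for single libraries, an open circle for control replicate 3 and a bar for the mean of each group of 3. CCHa1 rises from 77.99 to 90.61 CPM to 2611 to 3065 CPM, Tk and NPF fall below 100 CPM in each Notch RNAi library, and the groups overlap for Orcokinin.

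Single peptide hormones changed strongly in both directions. Of 14 tested, 6 rose and 3 fell (42.9% and 21.4%, against 22.3% and 20.3% of all genes), a share of falls near that of all genes. CCHamide-1 (CCHa1, 3R:14092504-14096835, minus strand) was at 90.61, 81.22 and 77.99 CPM in the controls and at 3065, 2946 and 2611 CPM in the knockdown, 34.5-fold higher (edgeR log2 fold change 5.11, SE 0.13, adjusted p = 2e-13). CCHa2 was at 40.35, 38.44 and 72.04 CPM and at 550.9, 526.7 and 512.6 CPM, 10.5-fold higher (adjusted p = 2.45e-06 by edgeR). Allatostatin A (AstA) was at 18.12, 22.96 and 25.82 CPM and at 744.7, 318.8 and 379.9 CPM, 21.6-fold higher with Notch RNAi replicate 1 well above the other replicates (adjusted p = 5.12e-06 by edgeR). Allatostatin C (AstC) was already abundant and rose 1.85-fold, from 877.9, 541.9 and 810.8 CPM to 1131, 1321 and 1674 CPM (adjusted p = 0.00179 by edgeR). Mip and sNPF, both low in the controls, were 5.64-fold and 5.93-fold higher (adjusted p = 8.65e-07 and 0.00233 by edgeR).

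Tachykinin (Tk, 3R:11994175-12005473, minus strand) went the other way, from 2973, 2168 and 3205 CPM to 48.74, 78.25 and 66.04 CPM, 43.2-fold lower (edgeR log2 fold change -5.43, SE 0.29, adjusted p = 9.03e-09). Neuropeptide F (NPF, 3R:16609220-16611325, plus strand), which is made in many of the same cells as Tk, was at 1955, 1400 and 1862 CPM in the controls and at 30.43, 39.1 and 69.03 CPM in the knockdown, 37.6-fold lower (edgeR log2 fold change -5.23, SE 0.45, adjusted p = 1.39e-06). Neither pair of groups came near to overlapping. The glycoprotein hormone subunit Gpb5 fell by 0.88 on the log2 scale (adjusted p = 0.00151 by edgeR). Orcokinin, the most abundant hormone transcript of the list, was at 14365, 8291 and 11446 CPM and at 10574, 11265 and 22318 CPM, with overlapping groups (edgeR log2 fold change 0.37, SE 0.27, adjusted p = 0.279, and -0.06 without Notch RNAi replicate 3). Transcripts of differentiated cells were thus present in the control libraries too.

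The enzymes that cleave and amidate peptide hormones showed no shared direction. Of 9 tested, 1 rose and 2 fell (11.1% and 22.2%). The rise was that of Pal1, an amidating lyase, 1.62-fold (adjusted p = 0.000188 by edgeR), and the falls were those of svr, a carboxypeptidase, and Pal2. Neither fall was stable. The call of svr (log2 fold change -0.47) was lost without Notch RNAi replicate 1 or 2 or control replicate 1 or 3 (-0.50 to -0.29), and that of Pal2 (-0.37) without any 1 of the Notch RNAi replicates or control replicate 1 or 3 (-0.41 to -0.27). Without control replicate 3, 3 members of the list rose and 0 fell by edgeR.

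Genes of synaptic and dense-core vesicle release rose in larger number. Of 22 tested, 16 rose and 0 fell (72.7% against 22.3% of all genes), with a median of 0.66, or 0.92 without control replicate 3. In that edgeR fit 17 rose and 0 fell. Sytalpha, a synaptotagmin, was at 57.92, 59.48 and 82.97 CPM in the controls and at 309.1, 403.2 and 311.1 CPM in the knockdown (edgeR log2 fold change 2.35, SE 0.18, adjusted p = 8.61e-08). The vesicle GTPase Rab3 was at 42.07, 39.23 and 67.18 CPM and at 154, 181.4 and 142.6 CPM (edgeR log2 fold change 1.69, SE 0.21, adjusted p = 2.02e-05). In both genes control replicate 3 was the highest control, and all knockdown libraries lay above it. Rbp, Syt4, cpx and nSyb rose by 1.66, 1.02, 0.90 and 0.79 on the log2 scale (adjusted p = 7.68e-06, 3.31e-05, 0.00141 and 0.000412 by edgeR).

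Of 27 tested guidance and immunoglobulin receptor genes, 12 rose and 4 fell (44.4% and 14.8%). Sidestep genes, which encode guidance molecules of motor axons, were among the largest rises of the whole comparison. The gene side was at 0.03373, 0.1317 and 0 CPM in the controls and at 7.022, 5.787 and 6.569 CPM under Notch RNAi (edgeR log2 fold change 6.78, SE 0.52, adjusted p = 1.61e-07, and 8.30 without control replicate 2). Its relative side-II had 1 count in all controls together and 574 in the knockdown, a pooled count ratio of 470 with an exact 95% interval of 83.9 to 18580 that covers counting error only. That count came from control replicate 1. The homophilic adhesion protein Fas3 was at 21.39, 21.54 and 24.63 CPM and at 94.4, 97.4 and 103 CPM (edgeR log2 fold change 2.13, SE 0.11, adjusted p = 1.52e-09). Among the falls, the guidance ligand NetA went from 1.957, 2.602 and 3.916 CPM to 0.1603, 0.1006 and 0.07465 CPM, 24.9-fold lower (adjusted p = 0.000847 by edgeR), NetB was lower by 2.63 and Dscam4 by 1.47 on the log2 scale (adjusted p = 0.00213 and 7.97e-07 by edgeR).

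Cell-cycle genes rose almost as a block. Of 39 mitosis genes tested, 35 rose and 1 fell (89.7% against 22.3% of all genes), with a median of 1.98. Of 46 genes for entry into S phase and for DNA replication, 42 rose and 0 fell (91.3%), with a median of 1.40. The call of 34 of the 35 and of 38 of the 42 held in every alternative run. Cyclin B (CycB), which drives mitosis with Cdk1, was at 3.104, 2.668 and 1.456 CPM in the controls and at 37.93, 46.12 and 33.72 CPM in the knockdown, 16.3-fold higher (edgeR log2 fold change 4.03, SE 0.28, adjusted p = 3.55e-08). Cdk1 was at 9.986, 8.267 and 8.705 CPM and at 46.88, 56.06 and 46.18 CPM, 5.53-fold higher (adjusted p = 9.03e-09 by edgeR). The RacGAP tum, needed for cytokinesis, was 9.24-fold higher, and the activating phosphatase stg 3.01-fold (adjusted p = 9.18e-08 and 1.54e-05 by edgeR). The mitosis gene that fell was twe, the germline counterpart of stg, by 0.34 on the log2 scale (adjusted p = 0.0179 by edgeR), a call lost without Notch RNAi replicate 1, Notch RNAi replicate 2 or control replicate 2 (adjusted p = 0.0795, 0.0834 and 0.064).

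In the replication list, cyclin E (CycE), which starts S phase, went from 2.8, 1.746 and 1.683 CPM to 19.62, 20.61 and 16.85 CPM, 9.16-fold higher (edgeR log2 fold change 3.20, SE 0.27, adjusted p = 2.1e-07). The helicase subunit Mcm7, the polymerase clamp PCNA and thymidylate synthase (Ts) were 7.26-fold, 5.48-fold and 6.64-fold higher (adjusted p = 9.08e-08, 2.7e-07 and 2.29e-08 by edgeR). For all these genes every knockdown library lay above every control library. The remaining 4 members of the list were not called.

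**Figure D3:**
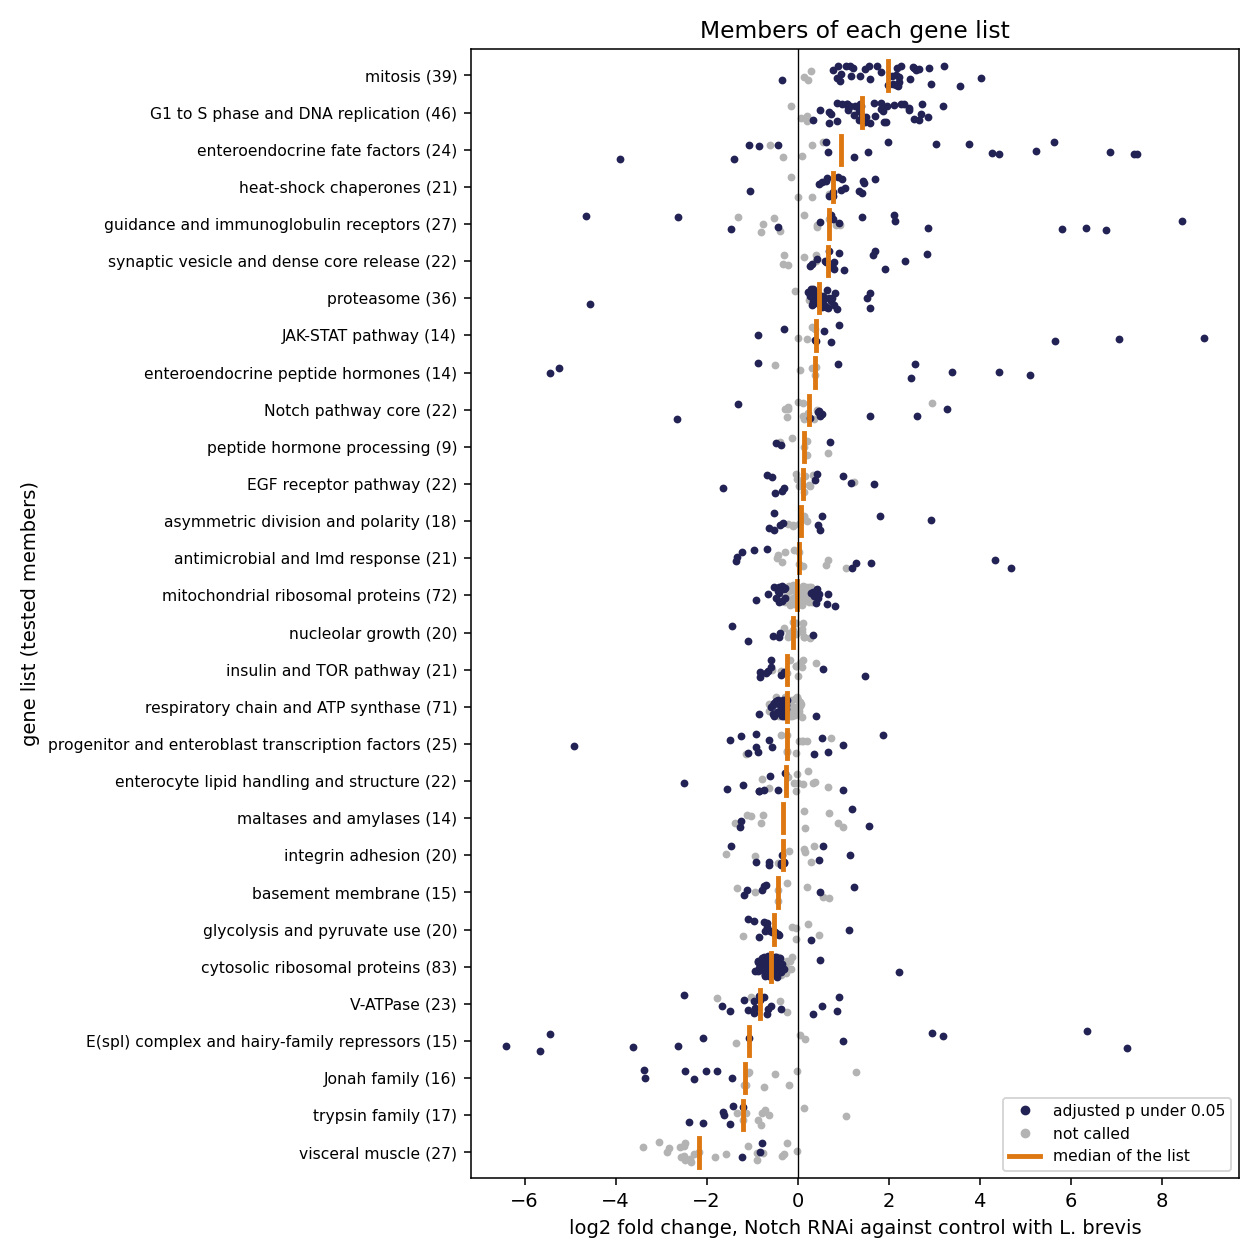
Log2 fold change of every tested member of the gene lists (x axis) with the lists ordered by their median (y axis, number of tested members in brackets), dark points for genes called at an adjusted p under 0.05, grey points for others and an orange bar for the median. Of the tissue and region marker lists, only that of visceral muscle is drawn. The mitosis and replication lists lie to the right with medians of 1.98 and 1.40, and the visceral muscle list has the lowest median, -2.16, which is 1.19 without control replicate 3.

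Except for maltases and amylases, genes of the mature enterocyte tended to be lower, with wide scatter between libraries. Of 17 trypsin genes tested, 0 rose and 7 fell by edgeR (41.2%), while DESeq2 had 1 rise and 9 falls. The count of falls was 4 without control replicate 3, 2 without Notch RNAi replicate 1, Notch RNAi replicate 2 or control replicate 1, and 3 without control replicate 2. The trypsins betaTry and epsilonTry kept their calls in every alternative. Of these, betaTry was at 1230, 1288 and 1321 CPM in the controls and at 321.6, 150.6 and 262.8 CPM in the knockdown (edgeR log2 fold change -2.38, SE 0.51, adjusted p = 0.00247), and epsilonTry was 4.24-fold lower (adjusted p = 0.00722 by edgeR). Several trypsins are near-identical copies, among which reads can be split, so single values are uncertain.

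Of 16 Jonah proteases, another digestive family, 7 fell and 0 rose (43.8% against 20.3% of all genes). Jon25Bii was at 354.6, 321.5 and 417.8 CPM in the controls and at 40.43, 34.85 and 32 CPM in the knockdown, 10.2-fold lower (edgeR log2 fold change -3.35, SE 0.52, adjusted p = 0.000261). Jon99Cii, whose reads may be shared with its close copy Jon99Ciii, was at 4048, 3028 and 1767 CPM and at 934, 434.2 and 810.3 CPM (edgeR log2 fold change -2.02, SE 0.43, adjusted p = 0.00215). Of 14 maltases and amylases, 2 rose and 2 fell (14.3% each, against 22.3% and 20.3% of all genes). Mal-A5, 2.94-fold higher, was the member called in every alternative (adjusted p = 5.53e-05 by edgeR). Of 22 genes of lipid handling and enterocyte structure, 9 fell and 1 rose (40.9% and 4.55%). The gene that rose was FASN1, fatty acid synthase, from 39.67, 40.74 and 49 CPM to 84.07, 93.75 and 81.97 CPM (adjusted p = 2.24e-06 by edgeR). The gene lab, the homeobox gene of the acid-secreting region, was lower by 1.55, the brush border myosin Myo31DF by 0.74 and the lipid droplet protein Lsd-2 by 0.85 on the log2 scale (adjusted p = 5.93e-07, 0.000175 and 2.44e-05 by edgeR).

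Cytosolic ribosomal protein genes were mostly lower and proteasome genes mostly higher. Of 83 cytosolic ribosomal protein genes tested, 70 fell and 2 rose (84.3% and 2.41%), with a median of -0.59. The count of falls was 46 with a replicate block in the fit and the compared groups only. The median stayed between -0.74 and -0.48 in every alternative, including the fit without ribosomal RNA genes, in which 67 fell. The share of ribosomal RNA in the libraries was also lower under Notch RNAi, and its part in this result was not tested beyond that fit. Of 36 proteasome subunits, 33 rose and 1 fell (91.7% and 2.78%), with a median of 0.48. Mitochondrial ribosomal proteins did not share a direction, with 10 higher and 13 lower of 72 (13.9% and 18.1%). Of 20 nucleolar growth genes, 5 fell and 1 rose (25% and 5%), a share of falls near the 20.3% of all genes. The largest of these falls was that of the nucleolar GTPase Non1, from 1167, 1228 and 1160 CPM to 440.3, 429.6 and 436.8 CPM (edgeR log2 fold change -1.44, SE 0.08, adjusted p = 4.24e-09).

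Glycolysis and V-ATPase genes fell in larger shares than all genes. Of 20 glycolysis genes, 12 fell and 2 rose (60% and 10%). Triose phosphate isomerase (Tpi) was at 452.7, 423.2 and 388.1 CPM in the controls and at 195.8, 195.4 and 203.4 CPM in the knockdown (edgeR log2 fold change -1.09, SE 0.10, adjusted p = 2.99e-07). Pgi, Gapdh2 and Hex-A fell by 0.96, 0.74 and 0.71 on the log2 scale (adjusted p = 1.69e-07, 5.1e-06 and 2.02e-05 by edgeR), whereas Pepck1, the committed enzyme of gluconeogenesis, rose by 1.14 (adjusted p = 0.00909 by edgeR). Of 23 V-ATPase subunits, which acidify organelles, 15 fell and 4 rose (65.2% and 17.4%), with a median of -0.82. Of 71 subunits of the respiratory chain and ATP synthase, 25 fell and 1 rose (35.2% and 1.41%). The count of falls was 15 without control replicate 1 and 16 without Notch RNAi replicate 2. It was 7 with a replicate block in the fit and the compared groups only, and 7 of the 25 falls held in every alternative. In the insulin and TOR pathway 8 of 21 fell and 2 rose (38.1% and 9.52%, against 20.3% and 22.3% of all genes). Without control replicate 3, 6 fell and 3 rose, and the median went from -0.23 to -0.01. The insulin-binding antagonist ImpL2 rose from 32.66, 28.98 and 25.82 CPM to 73.08, 65.19 and 105.3 CPM (edgeR log2 fold change 1.48, SE 0.19, adjusted p = 1.37e-05). The kinase Akt fell by 0.69 and the translation repressor Thor by 0.82 (adjusted p = 3.97e-05 and 0.000322 by edgeR).

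Of 21 heat-shock chaperones, 16 rose and 1 fell (76.2% and 4.76%), with a median of 0.77. Control replicate 3 was the highest control for several of them. The small chaperone Hsp67Bc was at 41.39, 36.3 and 67.83 CPM in the controls and at 147.4, 168.8 and 158.5 CPM in the knockdown (edgeR log2 fold change 1.71, SE 0.31, adjusted p = 0.000563). Hsp22 was at 1421, 1250 and 2122 CPM and at 2991, 3311 and 3544 CPM (edgeR log2 fold change 1.04, SE 0.24, adjusted p = 0.00295). Without control replicate 3, 18 rose and the median was 0.97, and without control replicate 1 or control replicate 2 the count was 10. Reads of the Hsp70 copies may be split among them. The constitutive chaperone Hsc70-4 was the exception, at 15964, 14922 and 16977 CPM in the controls and at 7729, 6992 and 8283 CPM in the knockdown (edgeR log2 fold change -1.06, SE 0.11, adjusted p = 1.06e-06).

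The Imd pathway senses bacterial peptidoglycan. Of 21 tested genes of this pathway and its antimicrobial peptides, 5 fell and 5 rose (23.8% each), shares near those of all genes, and the other 11 were not called. The falls were those of the peptidoglycan recognition proteins PGRP-LC and PGRP-LF, the adaptor imd, the inhibitor pirk and the transcription factor Rel. Each of these falls was called in every alternative. Rel was at 555.8, 825.5 and 712.7 CPM in the controls and at 313, 269.4 and 310.8 CPM in the knockdown (edgeR log2 fold change -1.23, SE 0.13, adjusted p = 2.59e-06). The inhibitor pirk was at 748, 939.8 and 709.8 CPM and at 350.1, 267.1 and 338.7 CPM (edgeR log2 fold change -1.33, SE 0.17, adjusted p = 1.7e-05). PGRP-LF was at 148.3, 191.4 and 150.4 CPM and at 68.39, 60.49 and 62.41 CPM (edgeR log2 fold change -1.36, SE 0.13, adjusted p = 9.36e-07). The rises, of the peptide genes AttD, Dro and Drs and the oxidase genes Duox and Nox, were each lost in 3 or more of the alternatives that gave a value. The count of rises was 2 without Notch RNAi replicate 1 or control replicate 3, 3 without Notch RNAi replicate 3 or control replicate 2, and 1 without control replicate 1.

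In the JAK-STAT pathway, which drives stem cell division, 8 of 14 genes rose and 2 fell (57.1% and 14.3%). The effector Stat92E, described above, was among the genes that fell. The calls of 4 of the 8 rises and 1 of the 2 falls held in every alternative. The receptor dome was at 40.82, 48.38 and 45.27 CPM in the controls and at 86.67, 85.37 and 79.7 CPM in the knockdown, and its feedback inhibitor Socs36E at 465.8, 408.7 and 430.7 CPM and at 741.3, 725.8 and 694 CPM (edgeR log2 fold changes 0.90 with SE 0.18 and 0.73 with SE 0.12, adjusted p = 0.000952 and 0.0002). The size of the rise of the stress peptides TotA and TotC, often used as readouts of this pathway, depended on Notch RNAi replicate 1. TotA was at 0, 0.09881 and 0.1942 CPM in the controls and at 38.41, 0.78 and 1.841 CPM in the knockdown, and TotC at 33.32, 1.636 and 3.061 CPM in the knockdown with 2 counts over all controls. Without Notch RNAi replicate 1 the log2 fold changes were 3.68 for TotA and 6.50 for TotC, in place of 7.06 and 8.93, and both were still called (edgeR adjusted p = 0.0305 and 0.0285). Without control replicate 1, which held the control counts of TotC, its fitted value was 11.64.

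Of 22 genes of the EGF receptor pathway, 5 rose and 6 fell (22.7% and 27.3%), shares near those of all genes. The inhibitor sty was at 249, 211.4 and 241 CPM in the controls and at 81, 79.56 and 63.93 CPM in the knockdown (edgeR log2 fold change -1.64, SE 0.16, adjusted p = 8.25e-07). The phosphatase Mkp3, which turns off the kinase of this pathway, fell by 0.69 (adjusted p = 0.0001 by edgeR). The gene edl, which antagonises the transcription factors at its end, rose 1.98-fold (adjusted p = 4.53e-06 by edgeR).

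Transcripts for adhesion to the basement membrane were lower for some components and higher for others. Of 20 integrin adhesion genes, 9 fell and 3 rose (45% and 15%), and 4 of these falls and 2 of these rises held in every alternative. Of 15 basement membrane genes, 5 fell and 2 rose (33.3% and 13.3%). CAP, an adaptor that binds vinculin, was at 658.2, 654 and 640.9 CPM in the controls and at 233.5, 227.7 and 244.4 CPM in the knockdown (edgeR log2 fold change -1.47, SE 0.09, adjusted p = 1.08e-08). The integrin beta subunit Itgbn was at 170.8, 218.7 and 208.9 CPM and at 104.5, 105.9 and 104.8 CPM (edgeR log2 fold change -0.93, SE 0.11, adjusted p = 4.77e-06). Laminin subunits LanA and LanB2 fell by 1.17 and 1.11 on the log2 scale (adjusted p = 0.00132 and 0.000216 by edgeR), whereas trol, the perlecan of the matrix, rose from 54.85, 54.25 and 62.33 CPM to 147.5, 136.2 and 119.5 CPM (edgeR log2 fold change 1.23, SE 0.13, adjusted p = 1.36e-06). Without control replicate 3, CAP, LanA, LanB2 and trol had log2 fold changes of -1.48, -1.10, -1.07 and 1.30, and 7 integrin adhesion genes and 4 basement membrane genes fell.

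Among 18 genes of asymmetric division and polarity, 5 rose and 5 fell (27.8% each). These shares were near those of all genes (22.3% higher and 20.3% lower). The calls of 4 of the rises and 2 of the falls held in every alternative. The spindle orientation protein mud was at 0.7759, 3.393 and 1.1 CPM in the controls and at 16.26, 12.05 and 11.79 CPM in the knockdown (edgeR log2 fold change 2.92, SE 0.57, adjusted p = 0.00108, and 3.82 without control replicate 2). The centrosome protein cnn was 3.50-fold higher, and the fate determinant carrier mira and its partner insc rose by 0.54 and 0.50 on the log2 scale (adjusted p = 2.33e-06, 0.00184 and 0.00387 by edgeR). The gene pins, which links the polarity complex to the spindle, fell by 0.64 (adjusted p = 0.00411 by edgeR).

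Muscle markers were high in control replicate 3. Mlc2, a myosin light chain of muscle, was at 3.07, 4.447 and 186.6 CPM in the controls and at 8.401, 1.636 and 24.81 CPM in the knockdown, and Mhc, the muscle myosin heavy chain, at 0.641, 0.2964 and 32.3 CPM and at 1.828, 0.1258 and 2.563 CPM. Neither was called with all libraries (log2 fold changes -2.48 and -2.88, edgeR adjusted p = 0.259 and 0.21), and without control replicate 3 both turned to 1.63 and 1.67 (adjusted p = 0.432 and 0.454). The median of the 27 muscle markers moved from -2.16 to 1.19. Their median level was 3.21, 0.78 and 7.71 CPM in Notch RNAi replicates 1 to 3, and 1.89 and 1.28 CPM in control replicates 1 and 2. Notch RNAi replicate 3 stayed in the fit without control replicate 3, so that fit is not free of a difference in muscle transcripts. The 3 called members, Mlc-c, Chd64 and Msp300, all lower, were abundant in every control library, and the call of Msp300 was lost without Notch RNAi replicate 2, Notch RNAi replicate 3 or control replicate 2 (edgeR adjusted p = 0.08, 0.0626 and 0.0567). Mlc-c and Chd64 fell by 0.79 and 0.82 with all libraries and had -0.80 and -0.84 without control replicate 3.

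Over all called genes, 105 changed their fold by more than 1.5 times when control replicate 3 was left out, and 0 of the called genes changed sign. The 8 called genes with at least 50 counts in that library and the largest shifts were CG18223, AANATL6, CG32379, hoe2, CG13991, AANATL4, Ten-a and Tdc1. CG18223 was at 0.2361, 0.1647 and 5.016 CPM in the controls and at 0.2245, 0.07549 and 0.09954 CPM in the knockdown. Its log2 fold change went from -3.76 to -0.61 (adjusted p = 0.0371 and 0.723 by edgeR). The acetyltransferase-like genes AANATL6 and AANATL4, and CG32379, went from -3.28, -3.64 and -4.77 to -0.97, -2.43 and -2.99, and all lost their calls (adjusted p = 0.54, 0.0829 and 0.112). The calls of CG18223 and CG32379 were also lost without any 1 of the Notch RNAi replicates (log2 fold changes -4.31 to -3.48 and -5.10 to -4.29), and those of AANATL6 and AANATL4 without Notch RNAi replicate 2 or 3 (-3.11 and -2.67, and -3.68 and -3.47). For the teneurin Ten-a and for hoe2 the rise was larger without that library, 4.20 and 3.63 in place of 3.01 and 2.26, but hoe2 lost its call when any other of the 6 libraries was left out (1.86 to 2.31). Tdc1, a tyrosine decarboxylase, had -1.15 in place of -2.31. CG13991 was at 0 in every Notch RNAi library, and its log2 fold change against the floor of 3 counts over that group, a bound, was -5.31 with all libraries.

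**Figure D4:**
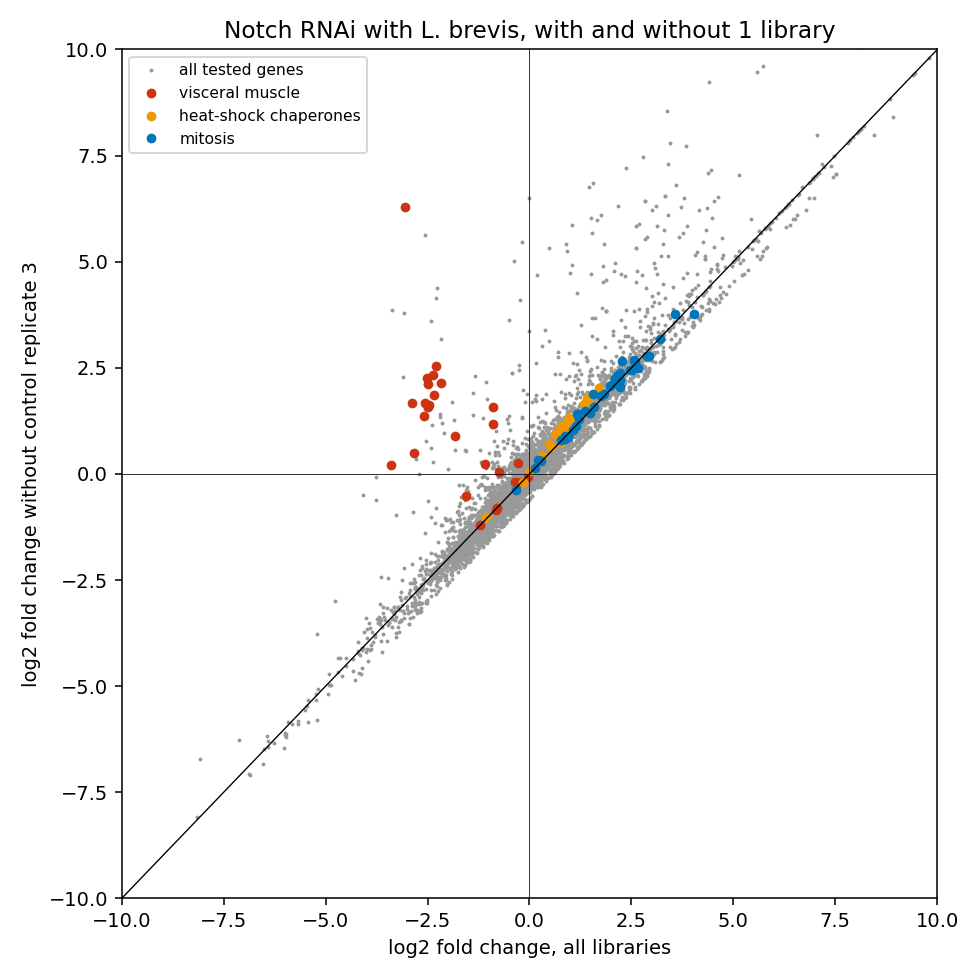
Log2 fold change of every tested gene with all libraries (x axis) and without control replicate 3 (y axis), with a line of equality and with the visceral muscle, heat-shock and mitosis lists in colour and 3 genes beyond the axes not shown. The muscle markers leave the line upwards, their median moving from -2.16 to 1.19, while the mitosis genes stay near it with medians of 1.98 and 2.04.

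The 12 largest rises with at least 50 counts in every Notch RNAi library were CG15605, AkhR, TotC, CG43182, side-II, Xport-B, Xport-A, phyl, ase, beat-IV, klg and insb. AkhR, the receptor of the adipokinetic hormone (2L:6711286-6716186, minus strand), had 0 counts in the controls and was at 2.95, 2.667 and 2.464 CPM in the knockdown. Against the floor of 3 counts over the controls it rose by at least 6.35 on the log2 scale (adjusted p = 8.38e-07 by edgeR), and the uncharacterised genes CG15605 and CG43182, likewise at 0, rose by at least 6.39 and 5.77. Klingon (klg), an immunoglobulin-type adhesion protein, was at 0.6747, 0.2306 and 0.06472 CPM in the controls and at 40.24, 54.27 and 28.07 CPM in the knockdown (edgeR log2 fold change 6.98, SE 0.47, adjusted p = 5.95e-08, and 8.08 without control replicate 1). The beat-family gene beat-IV was at 0, 0.09881 and 0.06472 CPM and at 6.445, 14.32 and 4.678 CPM (edgeR log2 fold change 7.17, SE 0.99, adjusted p = 5.07e-05, with 6.56 without Notch RNAi replicate 2 and 7.84 without control replicate 2). Xport-A and Xport-B share exons and had the same counts, so they cannot be told apart.

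The 12 largest falls were those of CG12934, CG30486, E(spl)m3-HLH, CG15629, lncRNA:CR44547, E(spl)mbeta-HLH, Tk, NPF, Tektin-C, CG6006, CG17145 and klu. The uncharacterised gene CG12934 (2R:10648888-10649830, plus strand) was at 1089, 963.2 and 1179 CPM in the controls and at 0.4489, 2.189 and 8.461 CPM in the knockdown (edgeR log2 fold change -8.16, SE 1.22, adjusted p = 0.000214, and -9.62 without Notch RNAi replicate 3). It was thus abundant in every control library and scarce, at different levels, in every knockdown library. The long non-coding RNA lncRNA:CR44547 (3L:11034802-11035905, plus strand) was at 18.93, 17.29 and 12.1 CPM and at 0.1283, 0.151 and 0.4479 CPM (edgeR log2 fold change -5.99, SE 0.44, adjusted p = 7.94e-08, and -6.80 without Notch RNAi replicate 3). Tektin-C, of a family that builds cilia and flagella, was at 9.682, 9.255 and 7.637 CPM and at 0.1924, 0.2265 and 0.2737 CPM (edgeR log2 fold change -5.23, SE 0.29, adjusted p = 3.32e-09).

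A few genes from the lists for other tissues also changed strongly. The scavenger receptor Sr-CI, listed as a haemocyte gene, was at 1.889, 2.931 and 1.65 CPM in the controls and at 93.53, 107.4 and 85.18 CPM in the knockdown, 44.1-fold higher (edgeR log2 fold change 5.46, SE 0.25, adjusted p = 6.11e-10). Another receptor of that list, crq, a CD36 relative, fell 2.11-fold (adjusted p = 9.09e-07 by edgeR). The zinc transporter ZnT35C, listed for the Malpighian tubule, was 24.8-fold higher (adjusted p = 0.000222 by edgeR). The lipid transfer particle protein Apoltp, listed for the fat body, was 22.8-fold lower (adjusted p = 3.18e-07 by edgeR). The gene bam, a differentiation factor of the germ line, was at 0 in every control library and at 0.8658, 1.183 and 0.6967 CPM in the knockdown, a rise of at least 4.79 on the log2 scale against the floor of 3 counts over the controls (adjusted p = 8.17e-05 by edgeR).

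Several named genes overlap exons of another gene, and whether counting used strand is not stated, so reads of the overlapping genes cannot be told apart. An antisense partner overlaps bam, CG15629, CG18223, CG30486, CG4269, CG6006, crq, CycE, dpn, Dscam4, fng, imd, Itgbn, lqf, Max, Mcm7, mud, Myc, Myo31DF, neur, Pal1, Pal2, PGRP-LF, pros, Rbp, svr, Sytalpha, Tdc1, Ts and twe. A gene on the same strand overlaps CAP, Hsp22, ImpL2, insc, Itgbn, Msp300, Myc, Pepck1, Ten-a, trol, Xport-A and Xport-B.

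Whether the effect of Notch RNAi with L. brevis differed from the effect in germ-free flies was tested as a difference of the log2 fold changes. It was called for 94 genes (0.798%), 28 with a larger value with L. brevis (0.238%) and 66 with a smaller value (0.56%). The lists with more than 1 called member were the Imd pathway and its peptides (3 of 21), peptide hormone processing (2 of 9) and copper cells (2 of 6). The count over all genes depended on single libraries. It was 25, 12 and 217 without L. brevis Notch RNAi replicates 1, 2 and 3, 29 and 61 without L. brevis control replicates 1 and 3, 0 and 21 without germ-free Notch RNAi replicates 2 and 3, and 0 and 12 without germ-free control replicates 1 and 2. At an unadjusted p under 0.05, the main fit had 1818 genes, and the 2 fits with no call had 1445 and 1605. DESeq2 called 431. This difference and the one from L. plantarum use the same L. brevis libraries.

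Of the genes with the largest called differences, CG4269 rose from 2.47 ± 0.0678 to 50 ± 15.3 CPM with L. brevis (mean ± SD, n = 3 in each group), against 3.39 ± 0.889 and 16.4 ± 3.07 CPM for germ-free controls and knockdown (n = 2 and 3), a difference of log2 fold changes of 2.06 (edgeR SE 0.35, adjusted p = 0.0223). Asparagine synthetase (AsnS) rose from 25.6 ± 6.04 to 137 ± 13.9 CPM with L. brevis, and the germ-free means were 21.2 ± 1.17 and 30.2 ± 9.55 CPM (difference 1.91, SE 0.38, edgeR adjusted p = 0.0377). The hormone gene Dh44, CG10000 and the antimicrobial peptide gene AttD had differences of 3.24, 2.85 and 2.52. CG10000 and AttD had log2 fold changes of 1.24 and 1.28 with L. brevis and of -1.61 and -1.24 in germ-free flies, while Dh44 had -0.22 and -3.46. For Dh44 the germ-free controls, at 18.3 ± 11.7 CPM (SD, n = 2), were the group that stood apart. In the other direction, the receptor Toll (Tl) fell further with L. brevis, from 15.97 ± 4.38 to 1.23 ± 0.0475 CPM, than among germ-free flies, where the means were 15.8 ± 2.79 and 5.17 ± 0.981 CPM (difference -2.09, SE 0.40, edgeR adjusted p = 0.029). Apoltp and Scp2 also fell in both conditions, with differences of -2.73 and -2.44. CG5160 was not called with L. brevis (log2 fold change -0.11) and rose in germ-free flies (2.17), and CR43087 fell with L. brevis (-0.80) and rose in germ-free flies (1.33), giving differences of -2.28 and -2.13. For these 10 genes, between 3 and 9 of the 11 fits with 1 library left out did not give the call of the difference. The call of the change with L. brevis itself was lost in 4 of 15 alternatives for CG10000 and for AttD. For CR43087 it was lost in 5 of 15.

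Against L. plantarum the difference was called for 2 genes (0.017%). E(spl)malpha-BFM fell less with L. brevis, from 246.7 ± 16.2 to 20.1 ± 3.17 CPM, than with L. plantarum, where the means were 247.6 and 7.65 CPM (difference 1.39, SE 0.21, edgeR adjusted p = 0.0338). The LIM-domain gene Lmpt rose from 131.8 ± 5.56 to 202 ± 7.97 CPM with L. brevis, and its L. plantarum means were 235 and 201.7 CPM (difference 0.84, SE 0.12, edgeR adjusted p = 0.0338). Its germ-free means were 230.7 CPM in the controls and 206.4 CPM in the knockdown, so the L. brevis controls were the group that stood apart. The change of Lmpt itself was not called in germ-free flies or with L. plantarum. Of the 12 fits with 1 library left out, 9 did not call E(spl)malpha-BFM, 9 did not call Lmpt and 8 called neither, the fit without L. brevis control replicate 3 among them (adjusted p = 0.102 for each).

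**Figure D5:**
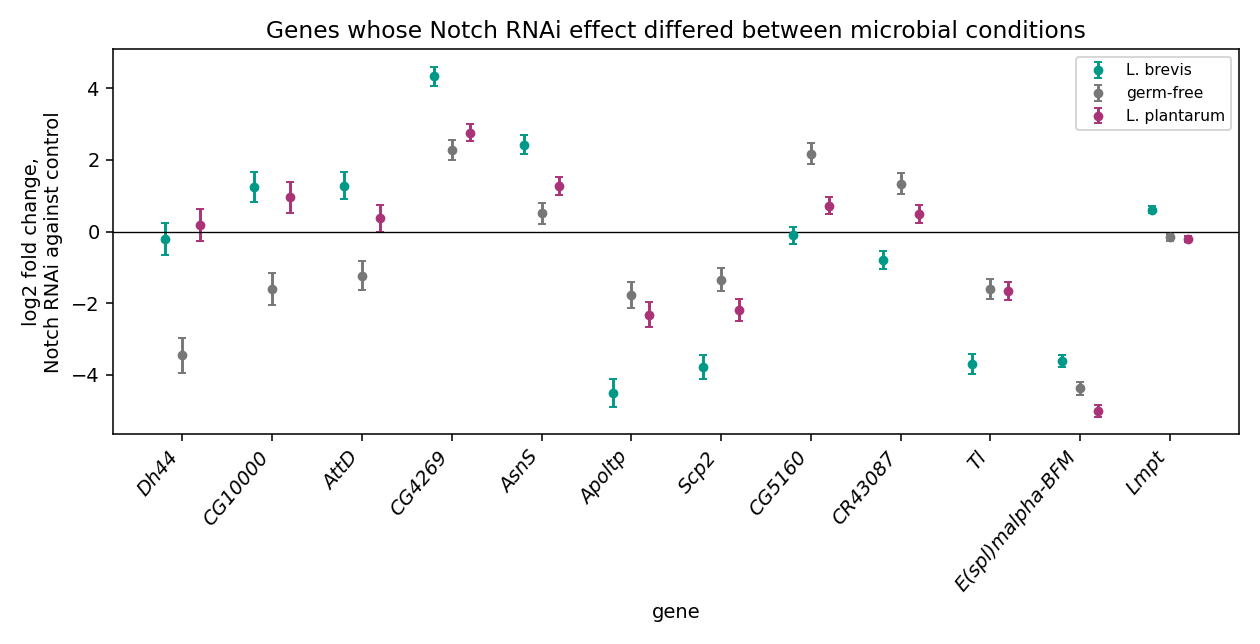
Log2 fold change of Notch RNAi against control (y axis, bars for 1 SE) with L. brevis, in germ-free flies and with L. plantarum for the 12 genes named for a difference between conditions. Lmpt is above 0 with L. brevis, at 0.62. Its values in the other conditions, -0.16 and -0.22, were not called. Tl lies at -3.70 with L. brevis against -1.61 and -1.66.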

How the data were processed

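RNA of sorted intestinal progenitor cells was sequenced. Read counts per gene are the whole-number table deposited by the authors. Per the submitters' processing notes, FastQC, Trimmomatic, HISAT2, SAMtools and edgeR were used, and genome build, annotation and use of strand are not given in the sources used here. The log2 fold changes, p-values and false discovery rates of the authors' comparison come from the authors' deposited table. Count columns took their sample from the column name, with 0 left over. Symbols and coordinates are from the Ensembl annotation of BDGP6. Of 17737 genes, 11786 passed edgeR's filter by group (99.98% of counts). All 17 libraries entered 1 edgeR fit (4.0.16, R 4.3.3, TMM scaling, robust quasi-likelihood test, biological coefficient of variation 0.23). The same procedure was also run on counts simulated from the group means and spread of this fit. P-values were adjusted by Benjamini-Hochberg over all tested genes. DESeq2 1.42.0 was an alternative. No label says that replicates came from separate cultures of flies beyond biological replication, every pair differed by more than sampling noise (chi-square per degree of freedom 58.6 to 135), and intervals and floors cover counting error only. Genes were named by list membership, the 12 largest rises and falls with separate groups and at least 50 counts per library of the higher group, the 5 largest differences each way, and the 8 that moved most without control replicate 3. The members and lists were chosen with earlier results of these data known. Escargot was not analysed here.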

Additional observations from a re-analysis of the deposited data

Results flagged for a closer look

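The change under Notch RNAi with L. brevis differed from the change in germ-free flies for 20 of the named genes, by a test of the difference of log2 fold changes in edgeR. The log2 fold change with L. brevis minus that in germ-free flies was 3.24 for Dh44, 2.85 for CG10000, 2.52 for AttD, 2.06 for CG4269, 1.91 for AsnS, 0.93 for Fas3 and 0.78 for Lmpt. It was -2.73 for Apoltp, -2.44 for Scp2, -2.28 for CG5160, -2.13 for CR43087, -2.09 for Tl, -1.31 for Gpb5, -1.27 for svr, -1.18 for PGRP-LF, -1.09 for lab, -1.04 for Pal2, -0.65 for PGRP-LC and -0.53 for Max. For bam the fitted difference was 7.50, a value that depends on the prior count because the L. brevis controls held 0 counts. Against L. plantarum, the differences of E(spl)malpha-BFM and Lmpt were 1.39 and 0.84. Each of these calls was absent in at least 1 alternative.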

How the results depend on the processing

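The count of genes called with L. brevis stayed within 1.5 times of 5015, between 3449 and 5307, under all 15 alternatives. Of the named genes, 150 were called, 134 of them in every alternative, and 0 changed sign. Genes not called did: Mhc and Mlc2 (-2.88 and -2.48) had 1.67 and 1.62 with the compared groups only and without control replicate 3, and ranged from -3.53 to 1.67 and from -3.70 to 1.63 with 1 library left out, and Orcokinin from -0.06 to 0.58. The cause was not tested. The difference from germ-free flies, 94 genes, was 431 with DESeq2, 41 with the compared groups only, and 0 to 217 with 1 library left out. The difference from L. plantarum, 2 genes, was 68 with DESeq2, 0 with the compared groups only (975 at an unadjusted p under 0.05), and 0 to 10 with 1 library left out. Replicate numbers did not pair the samples (correlations of deviations -0.061, 0.008 and 0.010 by number). With the replicate block, 5036 genes were called with L. brevis, 3449 with the compared groups only, and the differences were 11 for L. plantarum, and with the block and the compared groups only 0 for germ-free (1465 at an unadjusted p under 0.05) and 0 for L. plantarum (938). With the block and the compared groups only, 46 cytosolic ribosomal protein genes fell in place of 70, 7 respiratory chain genes fell in place of 25, and 20 proteasome genes rose in place of 33. Genes under about 1 CPM rest on few counts, which limits their folds.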
